A study of Mus musculus with 36 samples.

Results

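The Cited genes encode small transcriptional coregulators, and 3 members, Cited1, Cited2 and Cited4, were looked for by gene symbol in the normalised count tables of cultured mouse nephron progenitor cells (NPCs). Cited1 and Cited2 had a row in each of the 3 tables, among 25760 genes in the wild-type table, 26863 in the Ctnnb1 table and 26472 in the Tcf/Lef table. Cited4 had no row in any of them and was not analysed here. The genes listed in each table had at least 10 reads summed over its libraries.

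Cited proteins carry no DNA-binding domain of their own. Through a conserved acidic region near the carboxy terminus they bind the CBP and p300 histone acetyltransferases, and they are tethered to DNA by partners such as TFAP2 and Smad proteins. Cited2 competes with hypoxia-inducible factor for the same docking domain of CBP and p300, and it is itself a target of hypoxia signalling. In the developing kidney Cited1 is a standard marker of the least committed, self-renewing NPCs of the cap mesenchyme, and it is switched off when these cells respond to Wnt signals from the ureteric bud. CHIR99021 (CHIR), an inhibitor of the kinase GSK3, stabilises β-catenin, which acts on its targets together with the DNA-binding Tcf and Lef factors.

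All 36 libraries were bulk RNA-seq of NPCs isolated from embryonic mouse kidneys and kept in an expansion medium. The wild-type NPCs received no CHIR, low CHIR (1.25 µM) or high CHIR (5 µM), with 3 libraries at each dose. β-Catenin was removed in 2 ways and compared at low and high CHIR with 2 libraries per group. NPCs homozygous for a conditional Ctnnb1 allele received Cre mRNA or no Cre. NPCs with a constitutive Cas9-eGFP transgene received guides to Ctnnb1 or, as control, to GFP. In the Tcf/Lef quadruple knockout (QKO), Cas9-eGFP NPCs received guides to Tcf7l1, Tcf7l2, Tcf7 and Lef1 or to GFP, with 3 libraries per group except for QKO in low CHIR, which had 2 (replicates 1 and 3). Every cell of the removal experiments, controls included, was lipofected, marked by mCherry mRNA, sorted and first kept in low CHIR, whereas the wild-type cells were not lipofected. Each removal group is a pool of edited or recombined cells, not a clone. In the authors' immunostaining both ways of removal lowered β-catenin without abolishing it, so removal below means a partial loss. The labels do not say that replicates were separate isolations, so the p-values below measure the spread between these libraries, which may be technical.

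Reads on genes ranged from 13651129 to 76071568 per library in the wild-type table, from 14537850 to 27838106 in the Ctnnb1 table and from 13089780 to 20152719 in the Tcf/Lef table. The targeted gene was read first as a check of the labels. Ctnnb1 was at 1040 to 1652 normalised counts with the Ctnnb1 guide and 2521 to 3397 with the GFP guide in low CHIR, and at 1270 to 1630 against 2632 to 2701 in high CHIR. Its level with and without Cre overlapped in high CHIR (2254 to 2583 against 2207 to 2423), so total Ctnnb1 reads do not check the Cre label. Tcf7 was at 110 to 180 in QKO and 268 to 535 in its control in high CHIR, and at 66.2 to 97.7 against 141 to 220.1 in low CHIR. The groups overlapped for Tcf7l1 in high CHIR (539 to 736 against 486 to 612) and for Tcf7l2 in high CHIR (999 to 1616 against 1263 to 2233), so total reads of these genes do not check the label. Lef1 was at 255 to 513 in QKO against 1144 to 2743 in high CHIR. This difference was not called by limma, edgeR or DESeq2, but was called by limma with the replicate number as a block. The Lef1 groups overlapped in low CHIR (21.5 to 87.1 against 19.9 to 120). The progenitor marker Six2 was at 1162 to 3454 in the low CHIR libraries of all 3 tables. Xist and Y-linked genes were both read in every library, which bears on the X-linked Cited1.

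To show what sets the family apart and why its reads can be told apart, the best-matching in-frame stretch of 102 coding bases near the 3′ end of each coding sequence is given below, from the GENCODE transcripts. It covers bases 481 to 582 of 612 in Cited1, 658 to 759 of 810 in Cited2 and 397 to 498 of 549 in Cited4. Capitals mark the 57 bases that are the same in all 3 genes.
Cited1: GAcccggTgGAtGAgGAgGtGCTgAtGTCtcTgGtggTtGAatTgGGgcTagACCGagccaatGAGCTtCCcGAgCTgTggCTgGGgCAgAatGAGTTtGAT
Cited2: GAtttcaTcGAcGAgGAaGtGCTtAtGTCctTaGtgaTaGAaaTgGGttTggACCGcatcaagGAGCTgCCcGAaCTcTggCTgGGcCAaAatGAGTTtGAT
Cited4: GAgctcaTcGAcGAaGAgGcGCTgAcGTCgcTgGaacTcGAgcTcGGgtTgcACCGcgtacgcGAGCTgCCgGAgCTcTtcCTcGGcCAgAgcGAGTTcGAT
Within this stretch Cited1 and Cited2 shared 73.5% of bases, Cited1 and Cited4 64.7%, and Cited2 and Cited4 67.6%. Over whole transcripts the longest run of identical bases was 17 between Cited1 and Cited2 and 11 between either gene and Cited4, far shorter than a read. The coding sequences give proteins of 203, 269 and 182 residues.

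The stretches just upstream of the annotated starts were read to see which short motifs the 2 measured genes carry. Whether these motifs bear on the levels of the genes was not tested. The 250 bases upstream of each start are from RefSeq, build GRCm38.p6, with Cited1 at chrX:102252182-102252431 on the minus strand and Cited2 at chr10:17722978-17723227 on the plus strand. Capitals mark TATAAA in Cited1 and CACGTG in Cited2, the latter holding ACGTG on both strands in overlap.
Cited1: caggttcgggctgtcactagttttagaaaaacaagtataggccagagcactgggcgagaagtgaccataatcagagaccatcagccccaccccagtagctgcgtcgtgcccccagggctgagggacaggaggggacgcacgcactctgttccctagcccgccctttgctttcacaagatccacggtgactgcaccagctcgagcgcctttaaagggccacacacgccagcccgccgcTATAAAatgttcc
Cited2: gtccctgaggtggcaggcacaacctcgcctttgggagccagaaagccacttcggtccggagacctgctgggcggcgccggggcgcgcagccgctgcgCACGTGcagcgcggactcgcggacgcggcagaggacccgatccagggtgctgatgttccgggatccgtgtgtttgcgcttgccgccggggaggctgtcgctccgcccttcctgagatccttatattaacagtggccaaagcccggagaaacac
TATAAA, the core of a TATA box, lay 13 to 8 bases upstream of the Cited1 start and did not occur in the Cited2 window, and 12.4% of 32851 windows of this length hold it on either strand. ACGTG, the core of a hypoxia response element, lay 153 to 148 bases upstream of the Cited2 start, counted over both strands, and 16.6% of windows hold it. RefSeq lists 2 further Cited1 starts downstream of the first, of which one (chrX:102251844-102252093) holds TATAAA and ACGTG and the other (chrX:102250777-102251026) neither. CTTTGA, a core recognised by Tcf and Lef factors and held by 13.8% of windows, was not among the letters of any of these windows on either strand. G and C made up 58% of the first Cited1 window and 66.8% of the Cited2 window. These matches describe letters only.

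In GRCm38, Cited1 (ENSMUSG00000051159) spans chrX:102247381-102252181 and Cited2 (ENSMUSG00000039910) spans chr10:17723218-17725674. Counts were taken as normalised by the authors with size factors, and differences are on the scale of log2(normalised count + 1), with the interval at 95%. A gene was called changed when limma gave a Benjamini-Hochberg adjusted p under 0.05 over all genes of its table and a log2 difference of at least 0.5 in size. Whether groups of libraries overlapped is given as description only, since the share of all genes whose groups do not overlap was not counted.

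Across the CHIR doses in wild-type NPCs, Cited1 fell in steps and Cited2 was lowest without CHIR. Cited1 was at 13094, 16798 and 16526 normalised counts without CHIR, at 1639, 2130 and 4562 in low CHIR and at 77.3, 103 and 102 in high CHIR. No library of one dose overlapped another dose. Cited2 was at 603, 604 and 456 without CHIR, at 1522, 1590 and 1217 in low CHIR and at 1211, 1498 and 1306 in high CHIR. The no CHIR libraries lay below all others, and the low and high CHIR libraries overlapped.

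Against low CHIR, high CHIR lowered Cited1 by a log2 difference of -4.74 (SE 0.32, interval -5.44 to -4.03, limma adjusted p = 1.93e-05), in a comparison in which 10.4% of the genes tested were called. Leaving CHIR out raised Cited1 by 2.61 (SE 0.32, interval 1.91 to 3.31, limma adjusted p = 0.00322), with 4.97% of genes called. From no to high CHIR the difference was -7.35 (SE 0.32, limma adjusted p = 6.83e-07), with 23.4% of genes called. Between no and low CHIR, Cited2 went the other way and was lower without CHIR by a log2 difference of -1.38 (SE 0.17, interval -1.75 to -1.01, limma adjusted p = 0.00322). From no to high CHIR it rose by 1.28 (SE 0.17, interval 0.90 to 1.65, limma adjusted p = 0.000525). High against low CHIR gave -0.10 for Cited2 (interval -0.48 to 0.27, limma adjusted p = 0.758), which was not called. The 3 comparisons share libraries and are not independent of each other.

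**Figure D1:**
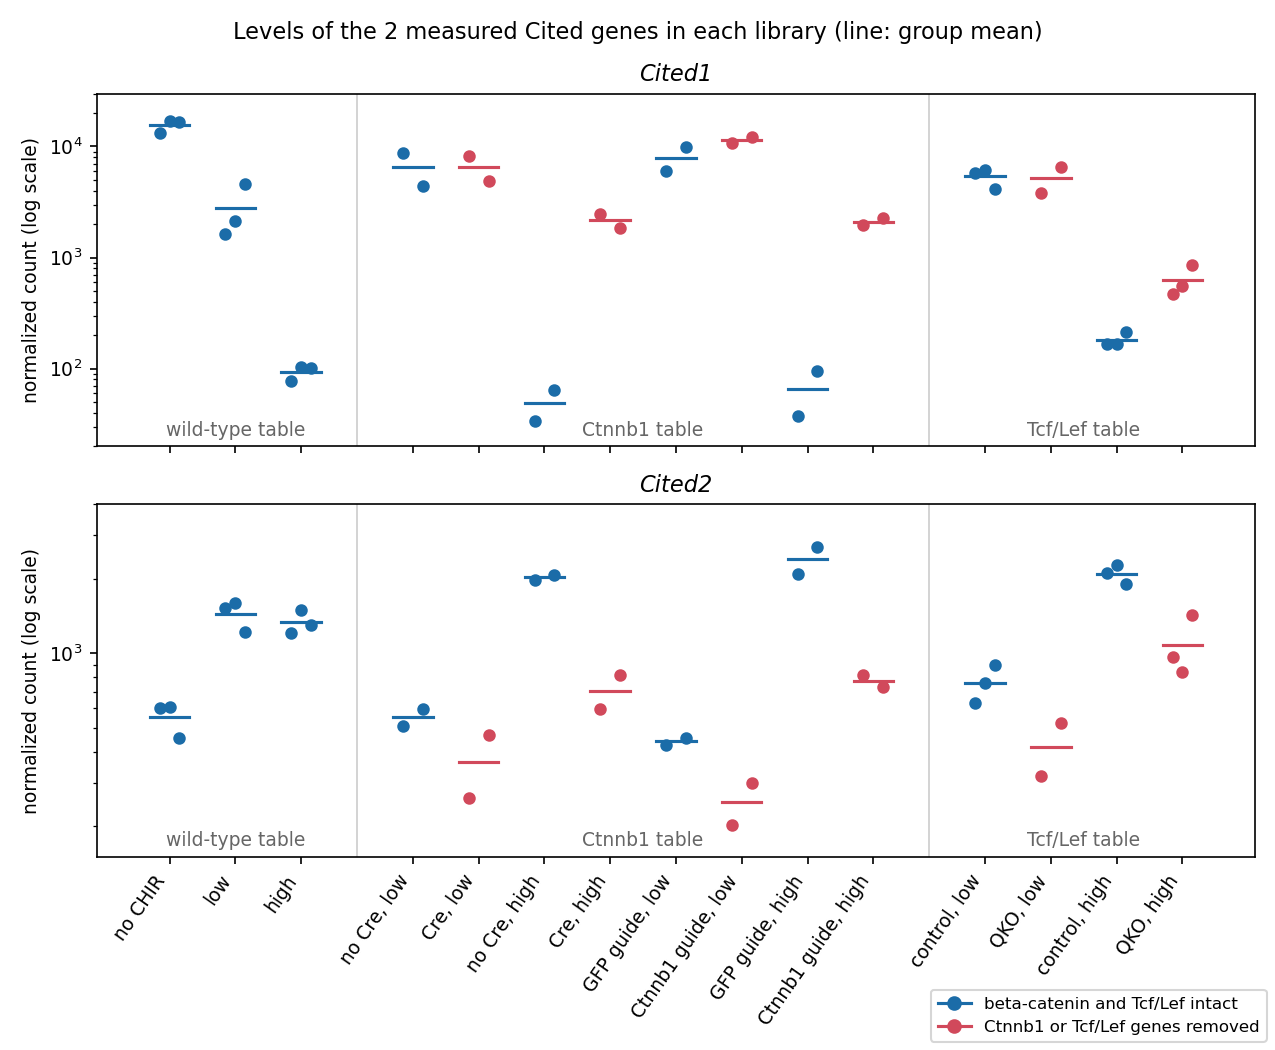
Normalised counts of Cited1 (upper panel) and Cited2 (lower panel) in each library on a log axis, by group, with a line at the group mean and red points where Ctnnb1 or the Tcf/Lef genes were removed. In high CHIR the Cited1 points of wild-type and control libraries sit between 34.1 and 215, those of QKO between 465 and 859 and those after Ctnnb1 removal between 1855 and 2479.

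In low CHIR, removal of β-catenin gave no called change of either gene. With Cre, Cited1 was at 8293 and 4845 normalised counts against 8722 and 4402 without, and with the Ctnnb1 guide it was at 10777 and 12223 against 5978 and 9802 with the GFP guide. The Cre groups overlapped and the guide groups did not. The log2 difference of Cited1 was 0.03 for Cre (interval -0.93 to 0.99, limma adjusted p = 0.991) and 0.58 for the Ctnnb1 guide (interval -0.37 to 1.54, limma adjusted p = 1), where 0.328% and 0.0536% of genes tested were called. The sign of the Cre difference turned to -0.46 without the second no Cre library and to -0.35 without the first Cre library.

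Cited2 in low CHIR was at 261 and 466 with Cre and 507 and 594 without, and at 202 and 299 with the Ctnnb1 guide against 427 and 453 with the GFP guide. Each library with β-catenin removed was below its controls, which is no evidence of a change, since how many genes separate in this way was not counted. The log2 differences of -0.65 for Cre (interval -1.24 to -0.07, limma adjusted p = 0.405) and -0.84 for the guide (interval -1.42 to -0.25, limma adjusted p = 1) did not pass the adjustment over all genes. The Cre value was -0.24 without the first Cre library and -1.07 without the second, and the guide value was -0.55 without the first Ctnnb1 guide library.

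In high CHIR both ways of removing β-catenin changed both genes, Cited1 upwards and Cited2 downwards. Cited1 was at 2479 and 1855 normalised counts with Cre and at 34.1 and 64.3 without. It was at 1956 and 2261 with the Ctnnb1 guide and at 37.5 and 94.8 with the GFP guide. The lowest library with β-catenin removed was thus far above the highest control. The log2 difference of Cited1 was 5.49 for Cre (SE 0.44, interval 4.53 to 6.45, limma adjusted p = 5.28e-06), with 8.65% of genes called, and 5.12 for the guide (SE 0.44, interval 4.16 to 6.07, limma adjusted p = 1.84e-05), with 5.09% called.

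Cited2 in high CHIR was at 593 and 818 with Cre and at 1983 and 2076 without, and at 814 and 731 with the Ctnnb1 guide against 2087 and 2697 with the GFP guide. Neither pair of groups overlapped. The log2 difference was -1.54 for Cre (SE 0.27, interval -2.13 to -0.96, limma adjusted p = 0.00257) and -1.62 for the guide (SE 0.27, interval -2.20 to -1.04, limma adjusted p = 0.00356). The guide call was lost without the second Ctnnb1 guide library (-1.54, limma adjusted p = 0.0572) and without the second GFP guide library (-1.44, limma adjusted p = 0.0622).

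The response to CHIR within each arm shows the same values from the other side, since the comparisons share libraries. From low to high CHIR, Cited1 changed by -7.02 without Cre (limma adjusted p = 8.89e-07) and -6.98 with the GFP guide (limma adjusted p = 8.5e-07), where 8.05% and 7.51% of genes tested were called. With Cre the difference was -1.56 (interval -2.52 to -0.60, limma adjusted p = 0.486), which was not called in a comparison that called 0.292% of genes, and DESeq2 on the recovered reads gave -1.61 (adjusted p = 0.0211). With the Ctnnb1 guide it was -2.45 (interval -3.41 to -1.49, limma adjusted p = 0.0196), with 0.763% of genes called. That call was lost when any 1 of the 4 Ctnnb1 guide libraries was left out, with adjusted p from 0.109 to 0.234.

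Cited2 rose from low to high CHIR by 1.88 without Cre (interval 1.30 to 2.47, limma adjusted p = 0.000583) and by 2.43 with the GFP guide (interval 1.84 to 3.01, limma adjusted p = 8.48e-05). With the Ctnnb1 guide it rose by 1.64 (interval 1.06 to 2.23, limma adjusted p = 0.0113), a call kept without the second low CHIR library (adjusted p = 0.0307) and lost without the first (0.126) or without either high CHIR library (0.163 and 0.0847). With Cre the difference was 1.00 (interval 0.41 to 1.58, limma adjusted p = 0.418), which was not called. With the replicate number as a block it was called (0.996, limma adjusted p = 0.0338), where 128 of 16780 genes were called. That block rests on 2 pairs of libraries with no label of a shared batch.

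The interaction tests whether the response to CHIR differed with β-catenin removed. For Cited1 it was 5.45 on the log2 scale with Cre (SE 0.63, interval 4.10 to 6.81, limma adjusted p = 0.00053), with 0.995% of genes called, and 4.53 with the Ctnnb1 guide (SE 0.63, interval 3.18 to 5.89, limma adjusted p = 0.00435), with 0.518% called. For Cited2 it was -0.89 with Cre (interval -1.71 to -0.06, limma adjusted p = 0.525) and -0.78 with the guide (interval -1.61 to 0.04, limma adjusted p = 0.761), neither of them called. A different response of Cited2 to CHIR was therefore not shown, although its level in high CHIR fell with β-catenin removed.

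**Figure D2:**
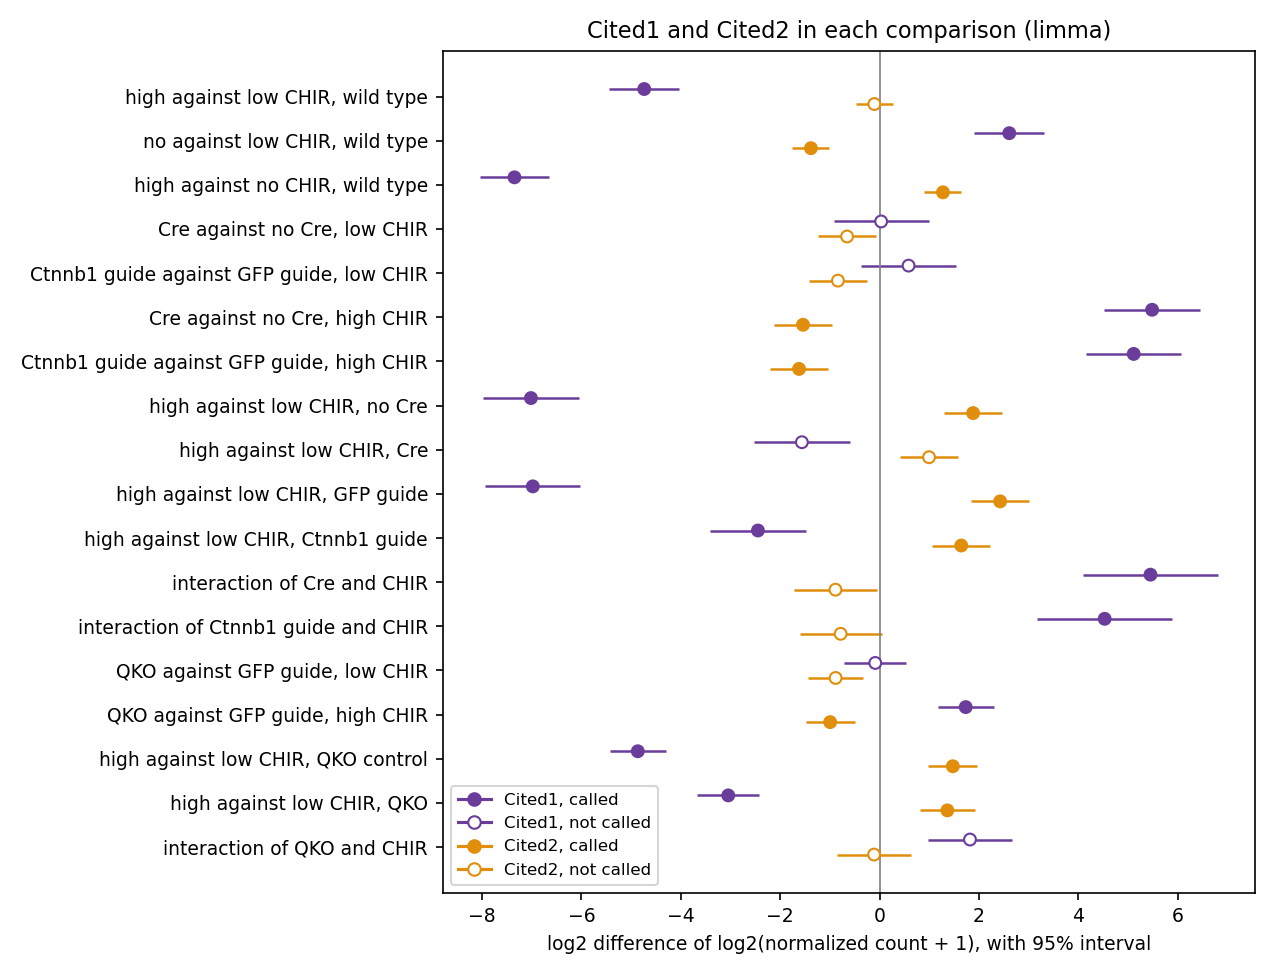
Log2 differences of Cited1 (purple) and Cited2 (orange) in each comparison on the horizontal axis, with limma intervals as lines and filled points where the gene was called. In high CHIR the Cre difference is 5.49 for Cited1 and -1.54 for Cited2, and in low CHIR none of the removal comparisons has a filled point.

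In the Tcf/Lef experiment the same directions were seen in high CHIR, with smaller differences for Cited1. Cited1 in high CHIR was at 465, 553 and 859 normalised counts in QKO and at 167, 165 and 215 in the control. Cited2 was at 966, 842 and 1421 in QKO and at 2106, 2281 and 1903 in the control. Neither gene overlapped between the groups. Cited1 rose by a log2 difference of 1.73 (SE 0.26, interval 1.17 to 2.29, limma adjusted p = 0.0039) and Cited2 changed by -0.99 (SE 0.23, interval -1.49 to -0.50, limma adjusted p = 0.0421), where 2.54% of genes were called. The Cited2 call was kept without the third QKO library (adjusted p = 0.0246) and lost without any of the other 5 libraries, with adjusted p from 0.0546 to 0.182. These values are from fits without the replicate block, with which both genes stayed called. QKO and Ctnnb1 removal were measured in separately normalised tables, so the sizes of their differences were not tested against each other. The authors also used a longer knockout period for QKO, and reported less complete protein loss for Tcf7 than for the other factors.

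In low CHIR, Cited1 was at 3836 and 6510 in QKO and at 5775, 6182 and 4179 in the control, and the groups overlapped. Cited2 was at 318 and 520 in QKO and at 627, 755 and 896 in the control, and the groups did not overlap. The log2 difference was -0.09 for Cited1 (interval -0.71 to 0.54, limma adjusted p = 0.967) and -0.88 for Cited2 (interval -1.44 to -0.33, limma adjusted p = 0.904), neither of them called, with 0.0063% of genes called, a single gene. With the replicate block neither gene was called either. For Cited1 the sign turned without the second control library (0.02) or the first QKO library (0.30).

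From low to high CHIR, Cited1 changed by -4.87 in the control (SE 0.26, limma adjusted p = 5.56e-07), with 14.9% of genes called, and by -3.05 in QKO (SE 0.29, interval -3.67 to -2.42, limma adjusted p = 0.000213), with 2.54% called. Cited2 rose by 1.48 in the control (interval 0.98 to 1.97, limma adjusted p = 0.00102) and by 1.36 in QKO (interval 0.81 to 1.92, limma adjusted p = 0.0157). The QKO call of Cited2 was lost in a fit of those libraries alone (adjusted p = 0.063), without the first low CHIR library (1.01, adjusted p = 0.165) and without the third high CHIR library (1.15, adjusted p = 0.052). The interaction of QKO and CHIR was 1.82 for Cited1 (interval 0.98 to 2.66, limma adjusted p = 0.132), not called, with 0.126% of genes called. Same-numbered libraries of this table varied together, and with the replicate number as a block the Cited1 interaction was 1.83 (limma adjusted p = 0.0381), which was called. For Cited2 the interaction was -0.11 (interval -0.85 to 0.63, limma adjusted p = 1), with a sign that turned without the first low CHIR control, the third low CHIR QKO or the second high CHIR QKO library.

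With the replicate block the number of genes called went from 404 to 1181 for QKO in high CHIR, from 1 to 16 for QKO in low CHIR, from 403 to 952 for CHIR in QKO and from 20 to 136 for the interaction.

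Because the genes differ in length, they were set side by side as normalised counts per kb of exon, with 1754 exonic bases for Cited1 and 2457 for Cited2. Without CHIR, Cited1 per kb was 30.4 to 50.8 times Cited2, and in low CHIR it was 1.51 to 5.25 times Cited2. In wild-type high CHIR the order was turned, with Cited2 per kb at 9.15 to 11.2 times Cited1. Cited2 thus made up 1.93% to 3.18% of the summed per kb level without CHIR, at most 39.9% in low CHIR (median 34.8%) and 90.1% to 91.8% in high CHIR.

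In high CHIR, Cited2 was 95.8% to 97.7% of the sum without Cre and 14.6% to 23.9% with Cre. It was 95.3% to 97.5% with the GFP guide and 18.7% to 22.9% with the Ctnnb1 guide. In both arms Cited1 was therefore again the more abundant of the pair per kb after β-catenin removal. In QKO the share was 52.1% to 59.7% against 86.3% to 90.8% in its control, so that Cited2 remained the higher gene in each QKO library in high CHIR. In low CHIR the share was 1.32% to 13.3% over all Ctnnb1 and Tcf/Lef groups.

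The summed per kb level of the pair was 7710 to 9823 without CHIR, 1554 to 3096 in low CHIR and 537 to 668 in high CHIR in wild-type NPCs. In high CHIR it was 1391 to 1654 with Cre against 826 to 882 without, and 1446 to 1587 with the Ctnnb1 guide against 871 to 1152 with the GFP guide. In QKO it was 658 to 1068 against 897 to 1023, and these overlapped. In bulk RNA, fewer cells that express a gene and less RNA per cell cannot be told apart, for these sums and for each value above.

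**Figure D3:**
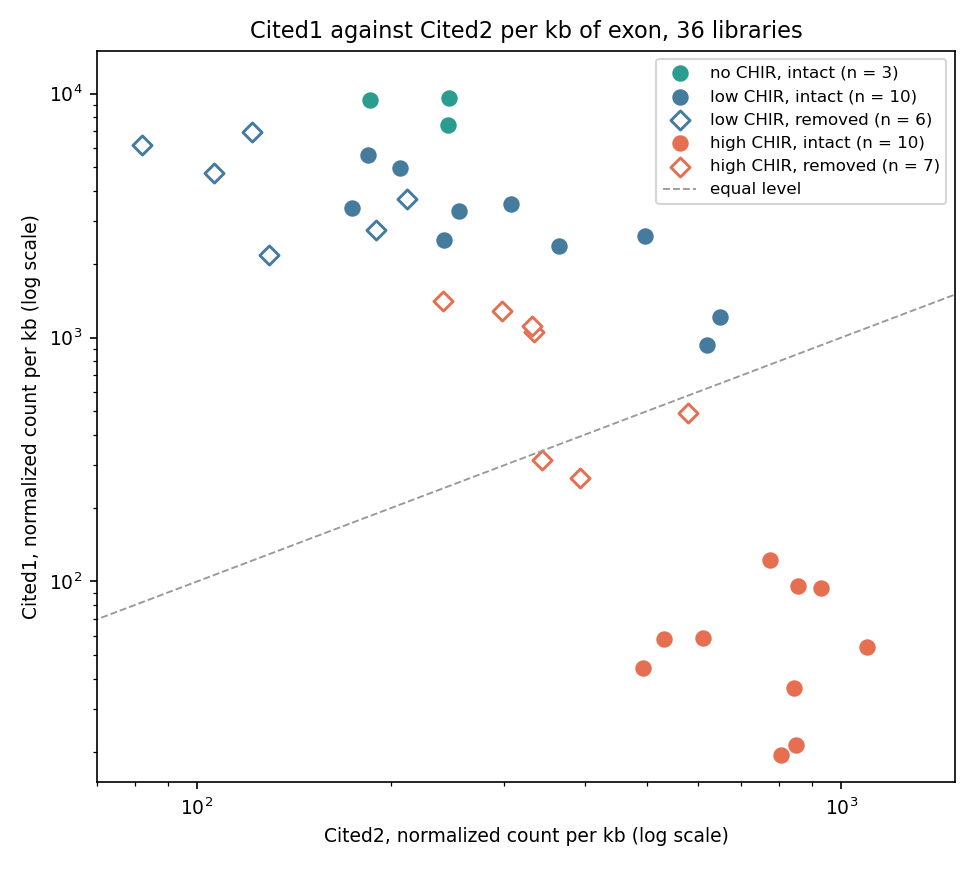
Cited1 against Cited2 in the 36 libraries, both as normalised counts per kb of exon on log axes, coloured by CHIR dose, with open diamonds where Ctnnb1 or the Tcf/Lef genes were removed and a dashed line of equal level. The 10 high CHIR libraries with intact genes lie at the lower right, the 4 with Ctnnb1 removed lie above the line and the 3 QKO libraries lie just below it.

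The partners of Cited proteins were read as a list of 18 genes, of which 14 or 15 were abundant enough to test in each table. Crebbp, which encodes CBP, was at 3930 to 6009 normalised counts in all libraries, and Ep300, which encodes p300, was at 118 to 539. Neither was called in any of the 18 comparisons, with log2 differences between -0.32 and 0.20 for Crebbp and between -0.48 and 0.56 for Ep300. From low to high CHIR in wild-type NPCs 0 of 15 partners rose and 2 fell, Wt1 by a log2 difference of -4.11 (limma adjusted p = 9.64e-06) and Pparg by -2.79 (limma adjusted p = 0.0268). Wt1 encodes a kidney progenitor transcription factor and Pparg a nuclear receptor. The list median was -0.25 beside 0.01 over all genes tested, of which 5.33% were called higher and 5.05% lower in this comparison. edgeR and DESeq2 on the recovered reads also called Tfap2a there, in a direction not reported here. From no to high CHIR limma called 1 partner higher (Tfap2a) and 3 lower (Ppara, Pparg and Wt1), where 23.4% of genes were called. In none of the 4 Ctnnb1 removal comparisons was any of 14 partners called by limma or edgeR, and 1, 0, 1 and 1 of them had an unadjusted p under 0.05 for Cre and the guide in low CHIR and Cre and the guide in high CHIR. DESeq2 called 1, Arnt, the partner subunit of hypoxia-inducible factor, with the guide in high CHIR. Over all genes tested, 10.7%, 3.43%, 20.8% and 19.4% had an unadjusted limma p under 0.05 in these 4 comparisons, in the same order. In high CHIR 5.9% of all genes tested were called higher and 2.75% lower with Cre, and 3.44% higher and 1.64% lower with the Ctnnb1 guide. In QKO in high CHIR, 1 of 15 was called by limma, Nr5a1, an orphan nuclear receptor, by 3.57 (limma adjusted p = 0.0328). There 2.05% of genes were called higher and 0.491% lower. DESeq2 called 3, Nr5a1, Tfap2a and Wt1, with 859 of 15878 genes called in either direction. With the replicate block 3 rose (Nr5a1, Pparg and Wt1) and 1 fell (Tfap2c), where 841 of 15878 genes were called higher and 340 lower.

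Targets of hypoxia-inducible factor, whose coactivation Cited2 is known to limit, were read as a list of 20. In wild-type NPCs 2 rose from low to high CHIR, Ddit4, an inhibitor of mTORC1 signalling, by 1.30 (limma adjusted p = 0.0346) and Hk2, a hexokinase, by 0.73 (limma adjusted p = 0.0449), and none fell. The list median was -0.07 beside 0.01 over all genes, of which 5.33% were called higher and 5.05% lower. Pdk1, a pyruvate dehydrogenase kinase, was lower without CHIR than in low CHIR by -2.83 (limma adjusted p = 0.0284), as was Hk2 by -1.25 (limma adjusted p = 0.0104). DESeq2 called 7 of the 20 in that comparison where limma called 2. Over all genes in that comparison DESeq2 called 1788 of 17411 and limma 865. The list median there was -0.38 beside 0.01 over all genes. With Cre in high CHIR 1 fell, Hk2 by -0.93 (limma adjusted p = 0.00498). With the Ctnnb1 guide in high CHIR 0 of 20 were called by limma, edgeR or DESeq2. With the guide 2 of 20 had an unadjusted limma p under 0.05, beside 19.4% of all genes tested. The list medians were 0.05 and 0.31 in these comparisons, beside -0.02 and 0.00 over all genes. In QKO in high CHIR 0 of 18 were called by limma or edgeR. Of these, 5 had an unadjusted limma p under 0.05, beside 14.3% of all genes tested. Bnip3, a mitophagy receptor, was called by DESeq2 and, lower, by limma with the replicate block, with which 340 of 15878 genes were called lower. From low to high CHIR in the QKO control 6 of 18 rose and 0 fell, with a list median of 0.52 beside 0.00, where 6.98% of genes were called higher and 7.96% lower.

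Targets of TGF-β and Smad signalling, a pathway in which Cited1 acts as a Smad cofactor, were read as a further list. From low to high CHIR in wild-type NPCs, Tgif1, a corepressor of Smad proteins, rose by 0.78 (limma adjusted p = 0.00829), and Tgfbi, a matrix protein, changed by -2.07 (limma adjusted p = 0.00925). With β-catenin removed in high CHIR, Tgif1 changed by -1.09 with Cre (limma adjusted p = 0.000914) and by -0.68 with the guide (limma adjusted p = 0.0334). Ccn2, a secreted matricellular protein, rose with Cre by 3.41 (limma adjusted p = 0.0411) and had a difference of 1.25 with the guide (limma adjusted p = 0.516). In QKO in high CHIR 0 of 7 were called by limma or edgeR, and 1 was called by DESeq2 (Skil, a Smad corepressor). Of the 7, 2 had an unadjusted limma p under 0.05, beside 14.3% of all genes tested. With the replicate block Ccn2 rose and Skil fell, where 841 of 15878 genes were called higher and 340 lower.

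The other genes of the progenitor state moved in the direction of Cited1 in part. The authors had reported Osr1, Meox2 and Tmem100 as higher after β-catenin removal in high CHIR in these data. The rise of these genes below is therefore no independent support. Of 14 progenitor genes, 10 fell and 0 rose from low to high CHIR in wild-type NPCs (list median -3.19), 6 rose and 3 fell with Cre in high CHIR (median 0.30), 5 rose and 2 fell with the Ctnnb1 guide (median 0.44) and 6 rose and 0 fell in QKO (median 1.12), or 8 and 2 with the replicate block. Medians over all genes in these comparisons were 0.01, -0.02, 0.00 and 0.00. The shares of all genes called higher and lower were 5.33% and 5.05% in wild-type NPCs, 5.9% and 2.75% with Cre, 3.44% and 1.64% with the guide, and 2.05% and 0.491% in QKO. With the replicate block, 841 of 15878 genes were called higher in QKO and 340 lower. Osr1 and Meox2, transcription factors of the early nephrogenic mesenchyme, rose with Cre by 4.44 (limma adjusted p = 2.21e-06) and 5.11 (limma adjusted p = 1.3e-07). Six2, which holds NPCs in the undifferentiated state, rose with Cre by 1.30 (limma adjusted p = 0.0294) and in QKO by 1.64 (limma adjusted p = 0.0226), and had a difference of 0.44 with the Ctnnb1 guide (limma adjusted p = 0.523). The progenitor genes that fell with Cre were Itga8, Pax2 and Sall1. Pax2 and Sall1 also fell with the guide.

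Of 6 genes of the induced, differentiating state, 4 rose from low to high CHIR in wild-type NPCs, among them Wnt4, the signal that drives formation of the renal vesicle, by 4.50 (limma adjusted p = 0.00358) and Lef1 by 3.90 (limma adjusted p = 0.000882). With Cre in high CHIR 5 of 5 tested fell, and with the Ctnnb1 guide 4 of 5 fell, with list medians of -2.94 and -2.31 beside -0.02 and 0.00 over all genes, of which 2.75% and 1.64% were called lower. Wnt4 changed by -3.20 with Cre (limma adjusted p = 0.000417) and by -2.43 with the guide (limma adjusted p = 0.00565). The authors had reported Wnt4 and Jag1 as lower after this removal in these data, so their fall is no independent support. In QKO in high CHIR 0 of 6 were called by limma, with a list median of -1.21. Of the 6, 4 had an unadjusted limma p under 0.05, beside 14.3% of all genes tested. The edgeR test called Wnt4 and DESeq2 Jag1 and Wnt4. With the replicate block 4 fell (Jag1, Lef1, Lhx1 and Wnt4), where 340 of 15878 genes were called lower. Cited2, which is on neither list, had the direction of the induced genes in these removal comparisons.

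**Figure D4:**
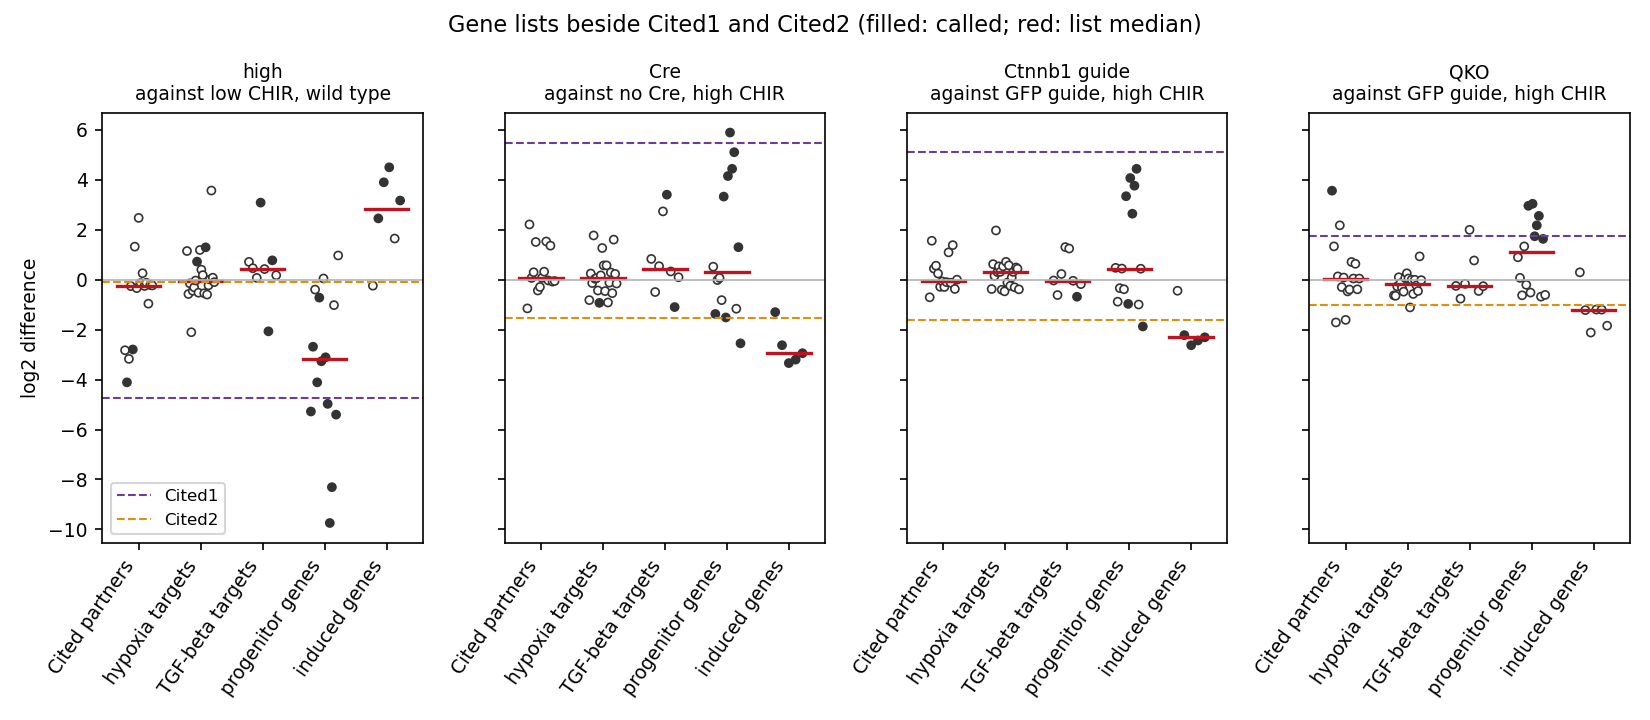
Log2 differences of the genes of 5 lists in 4 comparisons, 1 panel each, with filled points for called genes, a red line at each list's median and dashed lines at Cited1 (purple) and Cited2 (orange). In the Cre panel Cited1 lies at 5.49 among the progenitor genes that rose, and the induced genes all lie below 0.

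Markers of other cell types moved with some of these groups, and their part in the results was not tested. The 6 endothelial markers summed to 562 to 926 normalised counts with Cre and 59.1 to 63.5 without in high CHIR, and to 627 to 1055 with the Ctnnb1 guide against 71.8 to 158 with the GFP guide. Emcn alone made up most of this, at 523 to 911 with Cre against 35.9 to 43.6, while the other 5 markers summed to 15.1 to 38.9 against 15.6 to 27.6. The 7 stromal markers summed to 7201 to 12567 with Cre against 4996 to 6111 without, and overlapped between the guide groups (12219 to 19345 against 4743 to 14130) and between QKO and its control (1218 to 8129 against 1050 to 4092). In QKO in high CHIR the median of the 6 stromal markers tested was 1.17, with 0 called by limma, edgeR or DESeq2. Of the 6, 0 had an unadjusted limma p under 0.05, beside 14.3% of all genes tested. With the replicate block 4 rose (Col1a1, Col3a1, Pdgfra and Pdgfrb), where 841 of 15878 genes were called higher. The ureteric markers summed to 531 to 551 with Cre against 904 to 1025, to 584 to 680 with the Ctnnb1 guide against 829 to 996, and to 618 to 1051 in QKO against 1060 to 1741. In wild-type NPCs they summed to 2037 to 6802 in high CHIR against 701 to 989 in low and 691 to 804 without CHIR, and 3 of 5 tested rose from low to high CHIR (Epcam, Gata3 and Hoxb7). From low to high CHIR 5.33% of all genes tested were called higher and 5.05% lower. Stromal markers summed to 3811 to 11307 in high against 11082 to 16542 in low CHIR, with 7 of 7 lower, a median of -1.65 and 1 called (Foxd1). Blood markers were at 225 to 353 in high, 706 to 858 in low and 900 to 1262 without CHIR, and 1 of 3 tested fell (Lyz2). The 5 endothelial markers other than Emcn summed to 76.6 to 784 in high against 20.4 to 35.5 in low CHIR. Of 4 endothelial markers tested there, 1 was called higher (Tek) and 1 lower (Emcn). A single QKO control library in high CHIR reached 2739 for the blood markers, and its part was not tested. Without each of the 3 control libraries in turn, Cited1 stayed called in QKO and the Cited2 call was lost.

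Genes that start within 100 kb of Cited1 and Cited2 were read to see whether their neighbours moved with them. Gm14858, a non-coding transcript that starts at -341 bp relative to Cited1, that is upstream of it, and runs the other way, was at 9.94 to 20.5 normalised counts without CHIR, 0 to 4.79 in low CHIR and 0 to 1.87 in high CHIR in wild-type NPCs. It was abundant enough to test only in the Tcf/Lef table, where it was not called in any of 5 comparisons. Of the other neighbours, Rps4x, Ercc6l, Gm14859 and Txlnb were not called in any comparison in which they were tested, and Gm20655 was too low to test. The gene bodies of Cited1 and Cited2 overlap no other gene listed among these neighbours.

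The genes most like each member were taken from 11712 genes with a mean of at least 50 normalised counts in every table, by the root-mean-square difference of their 15 group means on the log2 scale, centred within each table. This is a description with no test, and the groups share controls and tables. For Cited1 they were Hlf (0.85), Il33 (0.88), Cbr2 (0.93), Rgs2 (0.99) and Fgf1 (0.99), where the median gene differed by 2.77. The most opposite to Cited1, compared with its pattern turned over, were Rnase12 (0.86), Sorbs2 (0.91) and Lrp4 (0.96). Hlf encodes a PAR bZIP transcription factor, Fgf1 a growth factor and Lrp4 a member of the LDL receptor family.

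For Cited2 the most alike were Dusp9 (0.27), Slc25a37 (0.28), Rhou (0.28), Gxylt2 (0.28) and Khdrbs3 (0.32), where the median gene differed by 0.96. The most opposite were Spats2l (0.28), Mxd4 (0.33) and Rab3d (0.34). Dusp9 encodes a phosphatase of MAP kinases, Rhou a Wnt-inducible small GTPase and Mxd4 a partner of Max that antagonises Myc. Cited1 was not among the genes most opposite to Cited2, nor Cited2 among those most opposite to Cited1.

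**Figure D5:**
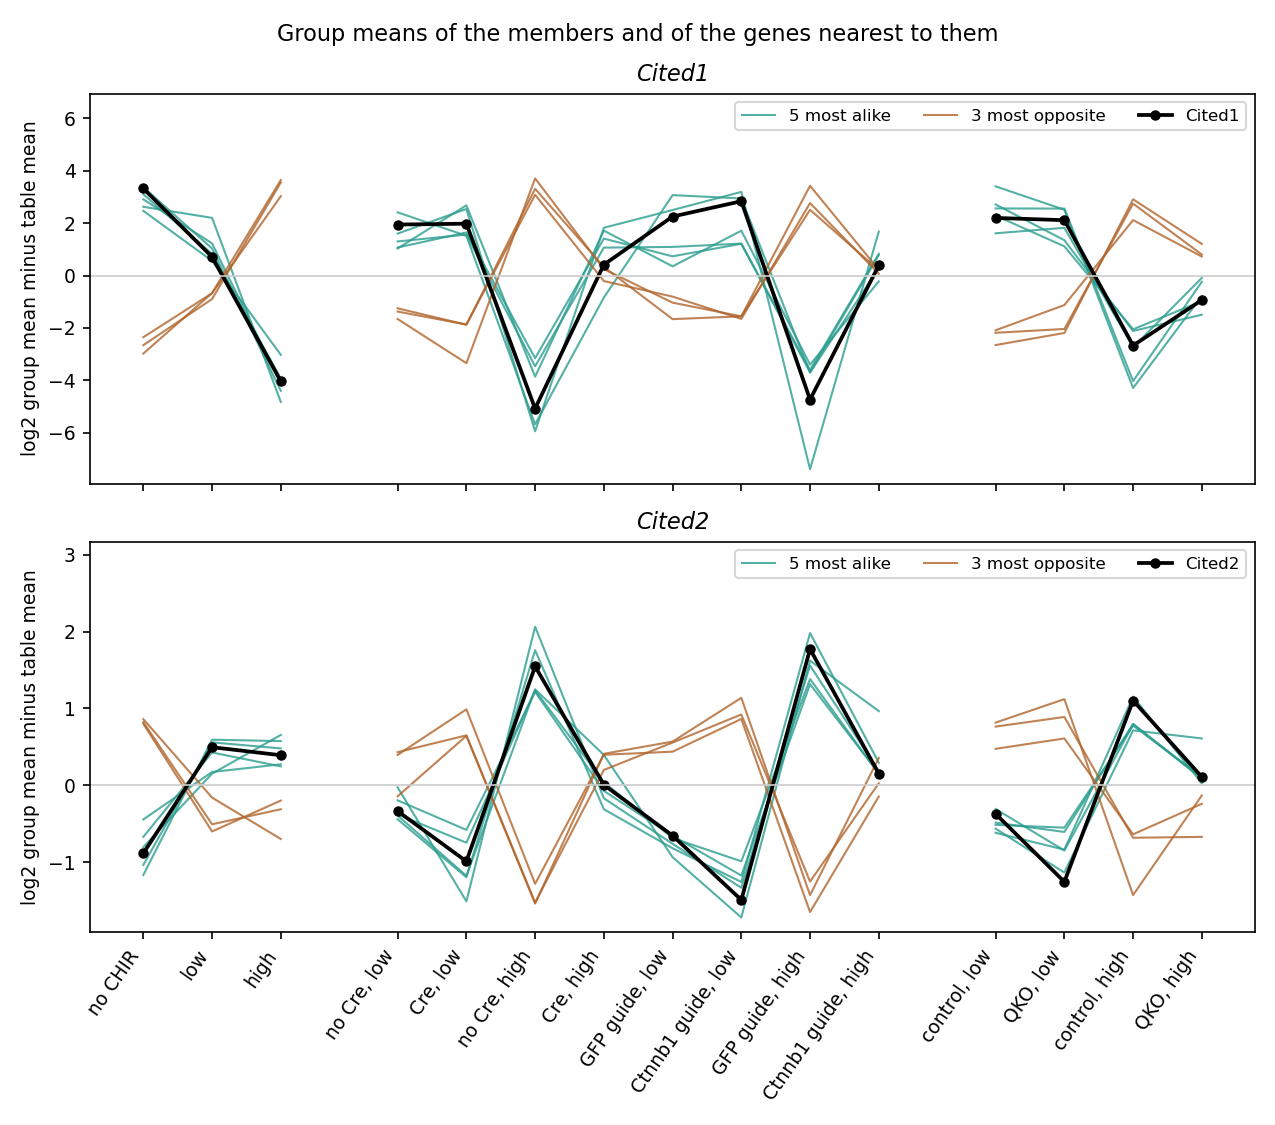
Log2 group means minus the mean of the table, by group, for Cited1 (upper panel) and Cited2 (lower panel) in black, the 5 most alike genes in green and the 3 most opposite in brown, with lines joined only within a table. The Cited1 mean is lowest in the high CHIR groups with intact genes, and the Cited2 mean is highest in the 3 high CHIR controls of the Ctnnb1 and Tcf/Lef tables.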

How the data were processed

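RNA-seq libraries of mouse NPCs were made by the authors with SMARTer cDNA synthesis, and the submitters' processing notes and the study's methods name STAR, a combined mouse and human genome (GRCm38 and GRCh38), featureCounts and DESeq2. Kit strand was not given in the sources used here. The deposited values were gene counts divided by DESeq2 size factors, a signal normalised separately in each of 3 tables (wild type, Ctnnb1 and Tcf/Lef). 62 per-sample or group-mean columns in tables of the authors' own comparisons (fold changes and p-values) were not used.

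Whole reads were recovered for 100% of non-zero values, within 0.02 of a whole number. The main test was limma (3.58.1, R 4.3.3) with a trend on log2(normalised count + 1), on genes with a mean of at least 10, fitted over all libraries of a table, with Benjamini-Hochberg adjustment. Alternatives were a pseudocount of 0.5, no filter, TMM rescaling, only the libraries compared, edgeR (4.0.16) and DESeq2 (1.42.0) on the recovered reads, a replicate block, and leaving out each library. Same-numbered libraries were checked by the correlation of their deviations from group means. In the Tcf/Lef table it was 0.340 or more for every pair, so blocked values are given there for the lists. For Cited1 and Cited2 in that table a blocked value is given only where the block changed the call, which was the Cited1 interaction. Their other differences in that table are from the fit without the block. The script was tested on simulated data.

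Genes named were the members, fixed lists, neighbours within 100 kb, and the 5 most alike and 3 most opposite genes. The members and lists were chosen with earlier results of these data known. Motifs, promoters and transcripts came from RefSeq and GENCODE on GRCm38. Results for some genes of the lists and neighbours are not reported here.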

Additional observations from a re-analysis of the deposited data

Results flagged for a closer look

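The response of Cited1 to CHIR differed between control NPCs and NPCs given Cre or the Ctnnb1 guide, by the interaction test itself. The interaction of Cre and CHIR was 5.45 on the log2 scale (limma adjusted p = 0.00053), with Cited1 at 34.1 and 64.3 normalised counts in high CHIR without Cre and 2479 and 1855 with it. The interaction of the Ctnnb1 guide and CHIR was 4.53 (limma adjusted p = 0.00435), with 37.5 and 94.8 normalised counts under the GFP guide and 1956 and 2261 under the Ctnnb1 guide in high CHIR. Both results kept their sign and their call in every alternative run.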

How the results depend on the processing

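For the 36 differences of Cited1 and Cited2, 450 values were recomputed under the alternatives, and 422 kept their direction and side of the threshold. The 7 that turned sign were differences not called in the first place: for Cited1 with Cre in low CHIR -0.460 without the second no Cre library and -0.355 without the first Cre library, for Cited1 in QKO in low CHIR 0.0247 without the second control and 0.296 without the first QKO library, and for the Cited2 interaction of QKO and CHIR 0.0201 without the first low CHIR control, 0.243 without the third low CHIR QKO library and 0.0484 without the second high CHIR QKO library. Leaving out a library gave Cited1 with Cre in low CHIR -0.46 to 0.53, Cited1 in QKO in low CHIR -0.47 to 0.30, the Cited2 interaction with QKO -0.46 to 0.24, Cited2 with the Ctnnb1 guide in high CHIR -1.81 to -1.44, Cited2 in QKO in high CHIR -1.21 to -0.84, and for CHIR, Cited1 with the Ctnnb1 guide -2.55 to -2.34, Cited2 with the Ctnnb1 guide 1.36 to 1.93 and Cited2 in QKO 1.01 to 1.72, and the cause of the lost calls beyond fewer libraries was not tested. With all libraries kept, 5 calls changed: CHIR in Cre cells for Cited1 with DESeq2 (-1.61, adjusted p = 0.0211) and for Cited2 with the replicate block (0.996, limma adjusted p = 0.0338), CHIR in QKO for Cited2 with only the libraries compared (1.365, limma adjusted p = 0.063), and the Cited1 interaction with QKO with DESeq2 (1.84, adjusted p = 0.00132) and with the block (1.83, limma adjusted p = 0.0381), the cause of which was not tested.

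The number of genes called moved more than that of the members, and over the 7 alternatives with all libraries kept it was 730 to 2038 for no against low CHIR (865 in the main test), 11 to 513 for Cre in low CHIR (55), 0 to 30 for the Ctnnb1 guide in low CHIR (9), 714 to 2639 for Cre in high CHIR (1452), 700 to 2133 for the guide in high CHIR (854), 616 to 2661 for CHIR without Cre (1350), 0 to 128 with Cre (49), 1104 to 2562 with the GFP guide (1260) and 122 to 447 with the Ctnnb1 guide (128), 51 to 526 for the Cre interaction (167), 82 to 235 for the guide interaction (87), 0 to 24 for QKO in low CHIR (1), 384 to 1181 in high CHIR (404), 392 to 952 for CHIR in QKO (403) and 18 to 158 for its interaction (20). Without single libraries it fell to 113 for no against low CHIR (without the third no CHIR library), 996 for high against low (1808; the third low CHIR library), 2609 for high against no (4070; the third no CHIR library), 18 for Cre in low CHIR (first no Cre library; 302 without the second), 839 for Cre in high CHIR (first no Cre library), 205 for the guide in high CHIR (second Ctnnb1 guide library), 152 for QKO in high CHIR and 129 for CHIR in QKO (second high CHIR QKO library for both). Same-numbered libraries of the Ctnnb1 table had correlated deviations (0.202 to 0.637, 1 value per comparison, since 2 libraries per group mirror each other), which with 2 pairs and no label of a shared batch is a hint only, and those of the wild-type table did not all correlate. Cited1 in high CHIR rested on 37 to 203 reads per control library, against 1247 or more in the low CHIR controls.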

Other observations

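Cited2 in low CHIR differed between the tables. It was at 1217 to 1590 normalised counts in wild-type NPCs, 427 to 594 in the Ctnnb1 table controls and 627 to 896 in the Tcf/Lef controls, and in RPM (reads scaled to a fixed total) on genes it was at 60.4 to 77.8, 21.4 to 30.5 and 39.2 to 52.6. Wild-type NPCs without CHIR were at 456 to 604 normalised counts and 23.5 to 31.1 RPM. High against low CHIR was not called for Cited2 in wild-type NPCs and was called in all 3 lipofected controls. The tables were normalised separately, the lipofected cells had a different handling and time in culture, so the table and these differences cannot be told apart, and the difference between tables was not tested.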
